A study of Mus musculus with 26 samples.

Results

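The response of mouse intestinal organoids to arachidonic acid (AA) was compared between day 6 and day 3 of treatment. The quantity described is a difference of responses, the AA against vehicle change at day 6 minus the AA against vehicle change at day 3. It rests on 14 of the 26 libraries of the series, chosen by their labels as the vehicle and AA libraries of those days. The organoids, small epithelial structures grown in Matrigel from crypts of C57BL/6 mice, were kept in medium with EGF, Noggin, R-spondin, N-acetylcysteine, B27, N2, the Wnt pathway activator CHIR-99021 and the ROCK inhibitor Y-27632, which all groups shared. At day 3 there were 3 libraries from organoids given vehicle and 3 from organoids given 25 µM AA, and at day 6 there were 4 of each. The age and sex of the mice and the number of mice are not given in the labels, and nothing says that replicates came from separate cultures. The p-values therefore measure only the spread between these libraries, which may be technical.

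Arachidonic acid is an omega-6 polyunsaturated fatty acid that is stored in membrane phospholipids and released from them by phospholipases. Cyclooxygenases turn it into prostaglandins, among them prostaglandin E2, which acts on epithelial cells through cAMP, and fatty acids of this kind also bind nuclear receptors of the PPAR family. In the intestine, Lgr5-marked crypt base columnar stem cells renew the epithelium and give rise to absorptive enterocytes and to secretory Paneth, goblet, enteroendocrine and tuft cells. After injury the epithelium can pass through a fetal-like state marked by genes such as Ly6a, Clu and Msln.

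The libraries of day 3 held 10088285 to 13457502 counts and those of day 6 held 16141385 to 19762827. The 2 days were deposited in separate tables that differ in library content. Mitochondrial ribosomal RNA took 6.74% to 8.84% of counts at day 3 and 0.00305% to 0.266% at day 6, and small noncoding RNA took 0.240% to 0.371% and 1.19% to 2.02%. Levels were therefore not compared between days, and the day and the table cannot be told apart. The small noncoding share was lower with AA on both days, at 0.329% to 0.371% with vehicle and 0.240% to 0.308% with AA at day 3, and 1.42% to 2.02% and 1.19% to 1.27% at day 6. Other mitochondrial RNA took 3.16% to 4.64% with vehicle and 4.55% to 5.23% with AA at day 6, and the part of these shares in the responses was not tested. Epithelial markers such as Epcam were present in all libraries, with a summed level of 5430 to 10300 CPM (read counts scaled to a common library total) over 10 genes. At day 3 this sum was 6360 to 7030 CPM with vehicle and 9100 to 10300 CPM with AA, and at day 6 the groups overlapped. Marker lists of other lineages summed to 5.13 to 9.07 CPM for fibroblasts and smooth muscle, 2.91 to 6.79 CPM for immune cells and 6.10 to 13.4 CPM for endothelial and neural cells. Col3a1, Dcn, Lum, Thy1, Cd3g, Cd8a, Emcn and Kdr among them had no counts in the 14 libraries. At day 3 the immune sum was 2.91 to 3.84 CPM with vehicle and 4.49 to 6.79 CPM with AA. The fibroblast and smooth muscle sum was 6.97 to 7.13 and 5.13 to 6.32 CPM there, and the endothelial and neural sum 11.0 to 13.4 and 7.29 to 8.20 CPM.

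The responses to AA on the 2 days differed for 1812 of the 15568 genes tested (11.6%), at an adjusted p under 0.05 in edgeR's quasi-likelihood test. The difference was higher at day 6 for 723 genes (4.64%) and lower for 1089 (7%), and it reached 2-fold for 220 (1.41%) and 127 (0.816%) of them. A higher difference can mean a rise that was larger at day 6 or a fall that was smaller, and the day responses tell these apart. Among the 723 genes with a higher difference, 396 (54.8%) fell at day 3 and were not called at day 6, 138 (19.1%) were called at day 6 alone, as rises, 97 (13.4%) fell on both days and 42 fell at day 3 and rose at day 6. Among the 1089 genes with a lower difference, 495 (45.5%) rose at day 3 and were not called at day 6, 267 (24.5%) were called at day 6 alone, as falls, 226 (20.8%) rose on both days and 48 rose at day 3 and fell at day 6. The most common pattern in either direction was thus a day 3 response that was not called at day 6. The split of the calls depended on scaling, since with library totals in place of TMM factors 1020 were higher and 636 lower (61.6% higher, against 39.9%). Leaving out vehicle replicate 2 or AA replicate 3 of day 3 left 1127 and 1124 genes called.

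Each day's own response was broad. At day 3, 4573 genes (29.4%) were called, 2677 as rises (17.2%) and 1896 as falls (12.2%), and at day 6, 4785 genes (30.7%) were called, 2411 as rises (15.5%) and 2374 as falls (15.2%). The day 3 split also turned with the scaling, to 1911 rises and 2956 falls with library totals in place of TMM factors, where day 6 had 2137 and 2546. Of the day 3 rises 1354 also rose at day 6, which is 50.6% of the day 3 rises and 56.2% of the day 6 rises. Of the day 3 falls 751 also fell at day 6, 39.6% of the day 3 falls and 31.6% of the day 6 falls. The 602 genes that rose at least 2-fold at day 3 (3.87%) had a median log2 response of 1.42 at day 3, a value set by that choice, and 0.78 at day 6. The 494 that fell at least 2-fold (3.17%) had medians of -1.44 and -0.42. Genes chosen for a large day 3 response can show a smaller one at day 6 through that choice alone. The same choice by day 6 responses was not made. Every AA library was above every vehicle library for 24.3% of genes at day 3 and 15.7% at day 6, and below for 19.4% and 15.8%, so that separate groups are common in these data. Groups of 3 libraries at day 3 separate more easily than groups of 4 at day 6. These shares, and the overlaps given below for single genes, are therefore not comparable between the days. The plot of both responses shows the called genes as 2 flanks along the diagonal of equal responses.

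**Figure D1:**
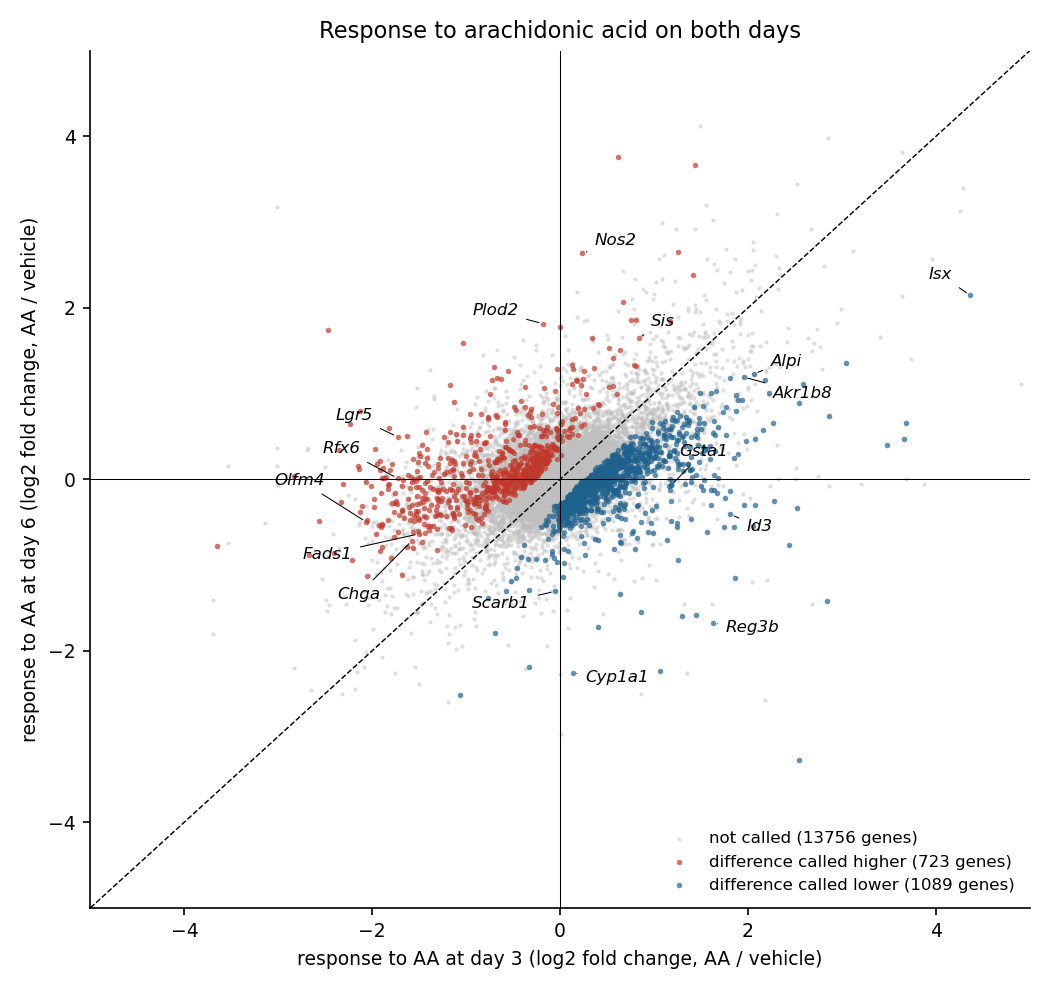
Each point is 1 of the 15568 genes tested, with its response to AA at day 3 (horizontal axis) and day 6 (vertical axis) as a log2 fold change of AA over vehicle. The dashed line marks equal responses, red points are the 723 genes with a higher difference at day 6 and blue points the 1089 with a lower one, and 3 genes lie outside the axes.

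Among genes of crypt base columnar stem cells, 9 of 21 had a called higher difference and 11 had no called difference, and the main stem cell marker changed direction. Lgr5, the R-spondin receptor that marks these cells, measured 149, 143 and 123 CPM in the vehicle libraries of day 3 and 40.7, 44.5 and 40.4 CPM with AA. At day 6 the vehicle libraries measured 41.5, 53.6, 42.9 and 43.9 CPM and the AA libraries 54.7, 69.1, 62.0 and 70.8 CPM. The AA libraries were thus all below vehicle at day 3 and all above it at day 6, by a smaller margin. Lgr5 fell 3.32-fold at day 3 (log2 -1.73 ± 0.11, adjusted p = 7.54e-10) and rose 1.41-fold at day 6 (log2 0.50 ± 0.09, adjusted p = 0.000347), a log2 difference of 2.23 ± 0.14 (adjusted p = 1.67e-08).

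In the stem cell list the 9 genes with a higher difference and the 1 with a lower one made up 42.9% and 4.76% of the 21, against 4.64% and 7% of all genes. The list's median log2 difference was 0.50, beside -0.01 over all genes. At day 3, 17 of the 21 fell with a median of -0.81, and at day 6, 12 fell with a median of -0.32 and 1 rose, which was Lgr5. In these bulk libraries, fewer cells of a type and less of its RNA per cell cannot be told apart.

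Olfm4, a secreted glycoprotein of crypt base cells, measured 1111, 1021 and 1205 CPM with vehicle and 254, 247 and 298 CPM with AA at day 3. At day 6 it measured 195, 270.2, 226 and 252 CPM with vehicle and 134, 202, 184 and 147 CPM with AA. The groups were far apart at day 3 and overlapped at day 6, where 1 AA library lay above the lowest vehicle library. Its log2 response went from -2.06 ± 0.14 to -0.50 ± 0.12, a difference of 1.56 ± 0.19 (adjusted p = 5.8e-05). Smoc2, a matricellular protein of the same cells, fell on both days, by log2 -1.54 and -0.41 (difference 1.13 ± 0.15, adjusted p = 0.00013). Lrig1, a feedback inhibitor of EGF receptor signalling, fell at day 3 (-0.57 ± 0.07) and was not called at day 6 (0.08 ± 0.06), with a difference of 0.65 ± 0.10. The RNA-binding protein Msi1 (-1.47 and -0.22, difference 1.25 ± 0.22) and the TNF receptor family member Tnfrsf19 (-1.30 and -0.23, difference 1.06 ± 0.19) showed the same pattern of a fall called at day 3 alone. The exception was Ascl2, a transcription factor of the stem cell programme. It measured 17.4, 16.2 and 15.7 CPM with vehicle and 14.6, 12.6 and 19.0 CPM with AA at day 3, and 5.19, 5.09, 4.37 and 6.45 CPM and 2.32, 3.71, 2.85 and 2.88 CPM at day 6. The groups overlapped at day 3 and separated at day 6, where Ascl2 fell (-0.84 ± 0.17). Its difference of -0.75 ± 0.23 (adjusted p = 0.0364) lost its call without any 1 of 10 of the 14 libraries.

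Other Wnt-responsive genes split. Of the 14 tested members of the Wnt feedback and target list, 4 had a higher difference and 2 a lower one (28.6% and 14.3%). Of all genes 4.64% and 7% did, and the list's median of 0.05 changed sign with the setting. Sox4, a transcription factor, fell on both days and less at day 6 (-1.29 and -0.40, difference 0.89 ± 0.10), and Prox1, a homeobox factor found in secretory cells and colonic stem cells, fell at day 3 alone (-1.83 and -0.07, difference 1.76 ± 0.24). Cyclin D1 (Ccnd1) went the other way, rising at day 3 (0.70 ± 0.09) with a day 6 response of 0.11 ± 0.07 that was not called (difference -0.59 ± 0.11, adjusted p = 0.00176). Lgr5 and Ascl2, described above, stand in this list too.

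Genes of the fetal-like and revival state rose on both days. Of the 22 tested genes of the fetal-like and revival list, 18 rose at day 3 with a median log2 response of 1.06, and 17 rose and 1 fell at day 6 with a median of 1.18. The difference was called for 3 of them, 1 higher and 2 lower (4.55% and 9.09%, beside 4.64% and 7% of all genes). Its median was -0.01, the same as over all genes to 2 decimals. Msln, a surface glycoprotein, measured 104, 106 and 113 CPM with vehicle and 444, 472 and 499.9 CPM with AA at day 3. Its day 6 levels were 8.56, 6.57, 3.76 and 4.66 CPM with vehicle and 11.0, 18.3, 13.0 and 27.7 CPM with AA. Every AA library was above every vehicle library on both days, and the difference of -0.57 ± 0.40 was not called (adjusted p = 0.387). Clu, a secreted chaperone of revival stem cells, rose on both days (1.44 and 0.85), as did Ly6a, the Sca-1 antigen (0.92 and 1.38), and Il33, an epithelial alarmin (2.77 and 1.55). Their differences of -0.59 ± 0.40, 0.46 ± 0.32 and -1.22 ± 0.47 were not called, and an interval of 2 SE around each spans more than 1 log2 unit, so a sizeable difference could not be detected at this precision. That of Il33 was called without vehicle replicate 4 of day 6 (-1.49, adjusted p = 0.0331) and with limma (-1.40, adjusted p = 0.025).

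The 3 fetal-like genes with a called difference were Cldn4, Anxa2 and Krt7. Cldn4, a tight junction claudin, measured 146, 126 and 155 CPM with vehicle and 145, 149.6 and 186 CPM with AA at day 3, and 26.6, 27.5, 21.2 and 24.8 CPM and 44.0, 59.8, 61.8 and 57.8 CPM at day 6. The groups overlapped at day 3 and separated at day 6, and the difference was 0.98 ± 0.17 (adjusted p = 0.000944). Anxa2, a membrane-binding annexin, rose on both days and less at day 6 (1.35 and 0.69, difference -0.66 ± 0.12). The keratin Krt7 had a difference of -0.58 ± 0.15, which was not called without vehicle replicate 2 (adjusted p = 0.0515) or AA replicate 3 (adjusted p = 0.0549) of day 3. Of 17 tested YAP and TEAD targets, which respond to the Hippo pathway, 8 rose at day 3 and 12 at day 6, with a median difference of 0.02 that changed sign with the setting. The 3 with a called difference were higher (17.6%, beside 4.64% of all genes). These were Arhgef17, a guanine nucleotide exchange factor (0.14 and 1.29, difference 1.15 ± 0.23), Ptpn14, a YAP inhibitor (0.13 and 1.11, difference 0.98 ± 0.25), and the transcription factor Tead1 (difference 0.43 ± 0.12), which was not called without vehicle replicate 2 (adjusted p = 0.0653) or AA replicate 3 (adjusted p = 0.0623) of day 3.

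Most replication and mitosis genes had no called difference. Of 26 tested, 7 had a lower difference (26.9%, beside 7% of all genes) and the other 19 were not called (median -0.17). At day 6, 16 of the 26 fell (15.2% of all genes did), beside 3 falls at day 3 (12.2% of all genes). Rrm2, a ribonucleotide reductase subunit, rose at day 3 (0.37 ± 0.06) and was not called at day 6 (-0.11 ± 0.05, difference -0.48 ± 0.08). Birc5 (-0.44 ± 0.09), a mitotic survivin, and Mcm6 (-0.39 ± 0.09), a helicase subunit, fell at day 6 alone. Mki67, the usual proliferation marker, was not called at day 3 (-0.14 ± 0.08) and fell at day 6 (-0.21 ± 0.07, adjusted p = 0.0216). Its difference of -0.07 ± 0.10 was not called (adjusted p = 0.677) and had the opposite sign, 0.011, with library totals in place of TMM.

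**Figure D2:**
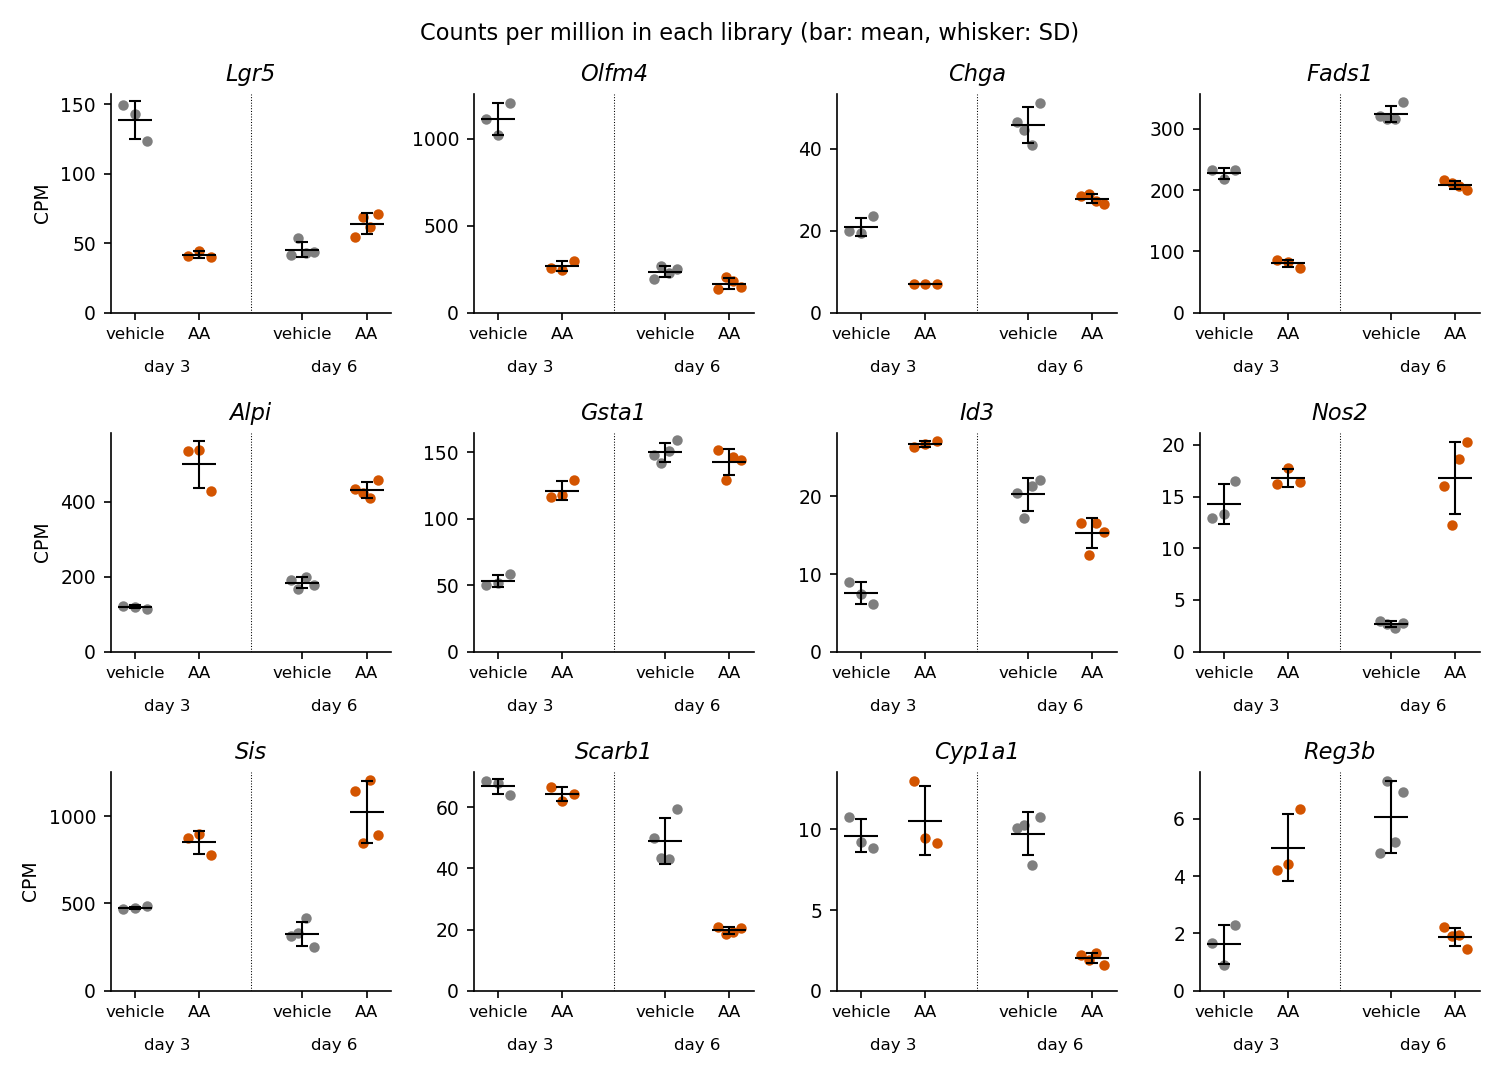
CPM of 12 genes in each of the 14 libraries, as points, with the group mean as a bar and the SD as a whisker (n = 3 libraries per group at day 3, n = 4 at day 6). Each panel has its own vertical axis from 0, and the AA and vehicle points are to be compared within a day only. Lgr5 lies below vehicle at day 3 and above it at day 6, Id3 and Reg3b do the reverse, and Scarb1 and Cyp1a1 separate at day 6 alone.

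Enteroendocrine genes had the highest share of higher differences among the lists described here. These hormone-secreting cells arise from Neurog3-expressing progenitors. Of 24 tested genes 14 had a higher difference and 1 a lower one, with a median of 0.94. These were 58.3% and 4.17%, beside 4.64% and 7% of all genes. At day 3, 22 of the 24 fell (median -1.34), and at day 6, 12 fell (median -0.34). Chga, chromogranin A of the secretory granule, measured 19.9, 19.4 and 23.5 CPM with vehicle and 6.999, 6.89 and 7.05 CPM with AA at day 3. With vehicle at day 6 it measured 46.4, 44.5, 40.8 and 51.2 CPM, and with AA 28.4, 29.0, 27.3 and 26.5 CPM. AA libraries were below vehicle on both days, in a larger ratio at day 3, with log2 responses of -1.58 ± 0.11 and -0.72 ± 0.07 (difference 0.86 ± 0.14, adjusted p = 0.000343).

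Neurod1 and Rfx6, transcription factors of the lineage, fell at day 3 and were not called at day 6. Neurod1 measured 8.30, 7.32 and 7.41 CPM with vehicle and 2.78, 2.37 and 2.33 CPM with AA at day 3, and 3.05, 3.06, 2.54 and 2.68 CPM and 3.07, 3.35, 2.97 and 2.40 CPM at day 6. The day 3 groups were apart and the day 6 groups overlapped, giving a difference of 1.67 ± 0.23 (adjusted p = 8.51e-05). Rfx6 followed the same course (-1.73 and 0.01, difference 1.74 ± 0.23). Chgb, the second chromogranin, fell on both days (-1.32 and -0.36, difference 0.97 ± 0.12). Outside the list, Pclo, a presynaptic scaffold (-1.81 and 0.11, difference 1.91 ± 0.24), and Cacna1a, a voltage-gated calcium channel subunit (-1.68 and -0.08, difference 1.60 ± 0.18), were among the 12 largest higher differences at a mean log2 CPM of 2 or more. The one member with a lower difference was the hormone Nts, neurotensin. It was scarce at day 3, with 0.655, 0.179 and 0.570 CPM with vehicle and 0.978, 0.823 and 0.802 CPM with AA, and measured 3.21, 5.81, 3.76 and 3.70 CPM and 1.36, 1.75, 2.13 and 0.418 CPM at day 6. AA libraries were above vehicle at day 3 without a call and below it at day 6, where Nts fell (-1.55 ± 0.30). Its difference of -2.41 ± 0.69 (adjusted p = 0.029) was lost without any 1 of 4 libraries.

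Most Paneth cell genes fell with AA on each day. Of 22 tested, 17 fell at day 3 (median -1.39) and 19 at day 6 (median -1.13). The difference was higher for 4 (18.2%, beside 4.64% of all genes) and lower for 2 (9.09%, beside 7%), with a median of 0.34. Mmp7, a metalloprotease that processes defensins, fell on both days (-1.63 and -0.79, difference 0.84 ± 0.12). Lyz1, the Paneth lysozyme, did too (-1.31 and -0.82), and its difference of 0.49 ± 0.14 (adjusted p = 0.0242) was lost without any 1 of 4 libraries, with adjusted p up to 0.0893. The 2 lower members were the antibacterial lectins Reg3b and Reg3g. Reg3b measured 1.68, 0.893 and 2.28 CPM with vehicle and 4.21, 4.42 and 6.33 CPM with AA at day 3, and 4.82, 7.34, 5.20 and 6.96 CPM and 2.22, 1.91, 1.96 and 1.46 CPM at day 6. The groups did not overlap on either day and their order reversed. Reg3b rose 3.10-fold at day 3 and fell 3.21-fold at day 6 (difference -3.31 ± 0.35, adjusted p = 5.59e-06), and Reg3g rose 1.99-fold and fell 1.55-fold (difference -1.63 ± 0.22). Reg3b and Reg3g are close paralogs, and how reads shared between such genes were counted is not stated in any label.

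Most goblet cell genes had no called difference. Of 18 tested, 12 were not called, 5 had a higher difference and 1 a lower one (median 0.24). Those called made up 27.8% and 5.56% of the list, beside 4.64% and 7% of all genes. Fcgbp, a mucus component, measured 787, 753 and 748 CPM with vehicle and 550.2, 578 and 399 CPM with AA at day 3. The day 6 libraries measured 1547, 1517, 1340 and 1697 CPM with vehicle and 2028, 1996, 1848 and 2042 CPM with AA. It fell at day 3 (-0.58 ± 0.11) and rose at day 6 (0.38 ± 0.09), and the groups did not overlap on either day (difference 0.96 ± 0.14, adjusted p = 0.000213). The trefoil peptide Tff3 fell at day 3 alone (-0.60 and 0.02, difference 0.62 ± 0.15). Clca1, a mucus-processing protease, rose on both days and more at day 6 (0.81 and 1.86, difference 1.06 ± 0.27). The 1 lower member was Guca2a, which fell at day 6 alone (0.04 and -0.53, difference -0.57 ± 0.14, adjusted p = 0.0108). Muc2 was not called on either day (0.31 and 0.27) or in the difference (-0.04 ± 0.20, adjusted p = 0.921). Of 8 tested tuft cell genes 1 rose and 1 fell at day 3 (median -0.10), and 4 fell at day 6 (median -0.645). The difference was called for 1 of them (12.5%, beside 11.6% of all genes), Avil, the actin-binding advillin. It measured 1.75, 1.88 and 1.71 CPM with vehicle and 6.25, 7.40 and 7.21 CPM with AA at day 3 and 2.19, 1.99, 1.66 and 1.98 CPM and 1.91, 1.03, 1.85 and 1.57 CPM at day 6, so that the groups were apart at day 3 and overlapped at day 6 (difference -2.26 ± 0.29, adjusted p = 4.82e-05).

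Most absorptive genes rose with AA, and for several the rise was smaller at day 6. Of 28 brush border enzymes and nutrient transporters, 11 had a lower difference (39.3%) and 3 a higher one (10.7%), with a median of -0.49. Of all genes 7% and 4.64% did. At day 3, 20 rose (median 0.81), and at day 6, 15 rose (median 0.31). Alpi, intestinal alkaline phosphatase, measured 123, 120.3 and 115 CPM with vehicle and 536, 538 and 428 CPM with AA at day 3. At day 6 it measured 190.3, 167, 201 and 179 CPM with vehicle and 435, 425, 409 and 459 CPM with AA. AA libraries were above vehicle on both days, 4.18-fold at day 3 and 2.35-fold at day 6 (difference -0.83 ± 0.11, adjusted p = 9.37e-05).

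Several transporters and enzymes lost their rise or changed direction. Slc15a1, the peptide transporter PEPT1, measured 14.8, 14.3 and 15.1 CPM with vehicle and 33.2, 29.3 and 23.8 CPM with AA at day 3, and 7.55, 6.16, 7.90 and 8.49 CPM and 5.94, 3.51, 6.49 and 5.07 CPM at day 6. The groups were apart at day 3 and overlapped at day 6, where 1 AA library lay above the lowest vehicle library. It rose at day 3 (0.97 ± 0.15) and fell at day 6 (-0.52 ± 0.16, difference -1.48 ± 0.22, adjusted p = 0.000194). Ace, angiotensin-converting enzyme (0.90 and -0.11, difference -1.0 ± 0.15), and Fabp2, the intestinal fatty acid binding protein (0.67 and -0.09, difference -0.76 ± 0.13), rose at day 3 alone. Krt20, a keratin of mature epithelium, rose on both days and less at day 6 (1.44 and 0.51, difference -0.93 ± 0.18). Among the 3 higher members, Sis, sucrase-isomaltase, measured 468, 474 and 483 CPM with vehicle and 872, 898 and 778 CPM with AA at day 3. Its day 6 levels were 314, 328, 416 and 249.5 CPM with vehicle and 1144, 849, 1208 and 891 CPM with AA. The AA libraries were above vehicle on both days, 1.79-fold and 3.13-fold (difference 0.81 ± 0.20, adjusted p = 0.0172), and without AA replicate 3 of day 3 the difference was 0.75 and not called (adjusted p = 0.0545). Slc5a1, the glucose transporter SGLT1, also rose more at day 6 (0.57 and 1.09, difference 0.53 ± 0.12). The general epithelial keratins Krt19 (0.92 and 0.14, difference -0.78 ± 0.12) and Krt8 (0.73 and 0.05, difference -0.67 ± 0.13) rose at day 3 alone. Krt18 also rose at day 3 alone (0.40 and 0.02), and its difference of -0.38 ± 0.16 was not called (adjusted p = 0.133).

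Most genes that package dietary fat also rose on both days. Of 20 tested genes for apolipoproteins and chylomicron assembly 9 had a lower difference and 11 were not called (median -0.41). The 9 were 45%, beside 7% of all genes. Of the 20, 17 rose at day 3 and 15 at day 6. Dgat2, which makes triglyceride, measured 33.1, 30.5 and 36.1 CPM with vehicle and 76.8, 79.4 and 78.7 CPM with AA at day 3, and 26.6, 26.03, 30.0 and 28.0 CPM and 39.3, 33.8, 36.0 and 38.0 CPM at day 6. AA libraries were above vehicle on both days, by log2 1.24 and 0.41 (difference -0.83 ± 0.10, adjusted p = 3.75e-05). Agpat2, an acyltransferase upstream of it, behaved alike (1.16 and 0.28, difference -0.88 ± 0.11). Apoa1, the main HDL apolipoprotein, rose at day 3 (1.32 ± 0.18) and was not called at day 6 (0.39 ± 0.15). Its difference of -0.94 ± 0.23 (adjusted p = 0.0196) was not called without vehicle replicate 1, vehicle replicate 2 or AA replicate 3 of day 3 (adjusted p up to 0.0566). Apoa4, a chylomicron apolipoprotein, rose on both days and its difference was not called (1.04 and 0.82, difference -0.21 ± 0.22).

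Scarb1, the HDL receptor SR-B1, had a pattern of its own in that list. It measured 68.4, 67.9 and 64.1 CPM with vehicle and 66.8, 62.0 and 64.4 CPM with AA at day 3, where the groups overlapped. At day 6 it measured 50.0, 43.4, 43.2 and 59.4 CPM with vehicle and 20.9, 18.4, 19.1 and 20.4 CPM with AA, where every AA library was below every vehicle library. Scarb1 fell 2.48-fold at day 6 (difference -1.25 ± 0.13, adjusted p = 5.18e-06). Isx, the homeobox repressor of Scarb1 and of the carotene-cleaving enzyme in mouse intestine, measured 1.02, 0.893 and 1.33 CPM with vehicle and 18.2, 23.7 and 25.1 CPM with AA at day 3. With vehicle at day 6 it measured 23.8, 30.4, 32.7 and 29.5 CPM, and with AA 119, 139, 119 and 138 CPM. AA libraries were far above vehicle on both days, 20.6-fold at day 3 and 4.43-fold at day 6 (difference -2.22 ± 0.27, adjusted p = 3.64e-05). Aldh1a1, which makes retinoic acid from retinal, rose on both days and less at day 6 (1.32 and 0.65, difference -0.67 ± 0.12).

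Fads1 and Fads2, the desaturases that make AA from its dietary precursor linoleic acid, fell less at day 6. Fads1, the delta-5 desaturase, measured 233, 218 and 233 CPM with vehicle and 85.8, 82.0 and 73.8 CPM with AA at day 3. The day 6 libraries measured 321, 316, 316 and 344 CPM with vehicle and 216, 212, 206 and 200.2 CPM with AA. AA libraries were below vehicle on both days, 2.83-fold at day 3 and 1.55-fold at day 6 (difference 0.86 ± 0.09, adjusted p = 5.59e-06). Fads2, the delta-6 desaturase, went the same way (-0.96 and -0.36, difference 0.60 ± 0.09). Of 19 tested genes of fatty acid synthesis and desaturation 8 had a higher difference and 2 a lower one (median 0.32), or 42.1% and 10.5%. Of all genes 4.64% and 7% did. Without vehicle replicate 2 of day 3 the number called in the list fell from 10 to 6. Scd2, a stearoyl-CoA desaturase, fell at day 3 alone (-0.48 and 0.06, difference 0.54 ± 0.13), as did Acly, ATP citrate lyase (-0.35 and 0.10, difference 0.45 ± 0.08). Acss2, acetyl-CoA synthetase, fell at day 3 and rose at day 6 (-0.38 and 0.25, difference 0.63 ± 0.10, adjusted p = 0.000218). Scd1 had a difference of 0.46 ± 0.18 that was not called (adjusted p = 0.111), and it was called in 5 of the 24 alternatives, with adjusted p from 0.00331 to 0.0472. Among 27 tested genes of cholesterol synthesis and uptake 1 (3.7%), the sterol reductase Tm7sf2, was called, as higher. The difference of Hmgcs1 (0.11 ± 0.14) was not called.

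Genes that respond to PPAR receptors rose strongly at day 3 and less at day 6. Of 17 tested, 14 rose at day 3 (median 1.08) and 11 at day 6 (median 0.31), with 5 lower differences (median -0.32). Lower differences made up 29.4% of the list, beside 7% of all genes. Pparg itself measured 24.5, 22.7 and 21.8 CPM with vehicle and 49.2, 44.8 and 53.1 CPM with AA at day 3, and 29.2, 28.5, 30.6 and 27.4 CPM and 38.8, 30.2, 35.2 and 31.3 CPM at day 6. The groups were apart at day 3 and overlapped at day 6, with responses of 1.09 ± 0.10 and 0.22 ± 0.08 (difference -0.87 ± 0.12, adjusted p = 0.000131). Vnn1, a pantetheinase (1.88 and 0.98, difference -0.90 ± 0.21), and Angptl4, a lipoprotein lipase inhibitor (1.02 and 0.31, difference -0.71 ± 0.17), rose at day 3 with lower differences, and Vnn1 rose at day 6 too. The lipid droplet protein Plin2 rose on both days (0.54 and 0.22), and its difference of -0.32 ± 0.12 was not called (adjusted p = 0.0988) but was called without vehicle replicate 2 (-0.38, adjusted p = 0.037) or AA replicate 1 (-0.38, adjusted p = 0.0454) of day 6, and with all 26 libraries (-0.30, adjusted p = 0.0466). Pdk4 rose on both days at low levels (1.94 and 0.83, difference -1.11 ± 0.57, adjusted p = 0.258). For fatty acid oxidation, 8 of 28 genes (28.6%) had a lower difference (median -0.21), a count that ranged from 2 to 11 over the settings tried. Cpt1a, which admits fatty acids to mitochondria (1.02 and 0.36, difference -0.66 ± 0.10, adjusted p = 0.000285), and the dehydrogenase Acadvl (0.58 and 0.15, difference -0.43 ± 0.10) kept their calls throughout.

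**Figure D3:**
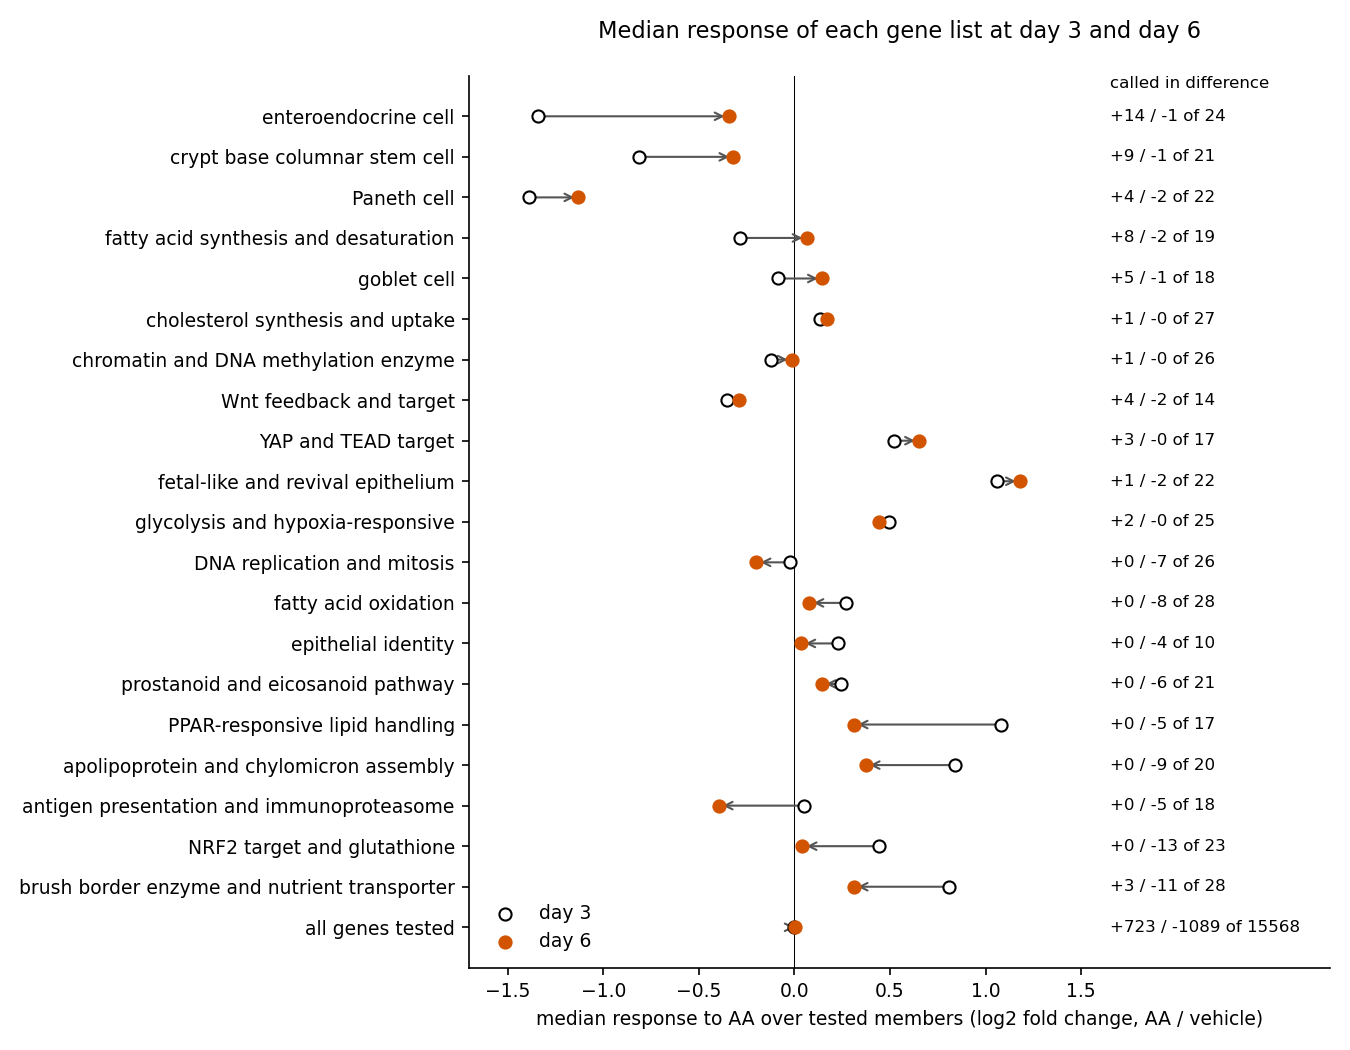
Median response to AA of the tested members of 20 gene lists and of all genes, as a log2 fold change of AA over vehicle at day 3 (open circles) and day 6 (filled circles), with an arrow from day 3 to day 6. The numbers at the right count members with a higher (+) and a lower (-) difference among those tested. The enteroendocrine median goes from -1.34 to -0.34 and the fetal-like median from 1.06 to 1.18.

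In the prostanoid and eicosanoid pathway, 6 of 21 tested genes had a lower difference (28.6%, beside 7% of all genes). The other 15 were not called, and the median was -0.26. Among enzymes that make prostaglandins, Ptgs2, cyclooxygenase 2, rose at day 3 (1.16 ± 0.26) but was near the floor of detection at day 6, with 0.321, 0.255, 0.221 and 0.255 CPM with vehicle and 0, 0.361, 0.224 and 0.523 CPM with AA. Its difference of -1.10 ± 0.60 was not called (adjusted p = 0.249). Ptges, the inducible prostaglandin E synthase, measured 1.68, 0.804 and 0.665 CPM with vehicle and 4.59, 5.86 and 7.38 CPM with AA at day 3, and 0.0535, 0.0509, 0.276 and 0.192 CPM and 0.101, 0.0516, 0 and 0.157 CPM at day 6. The groups were apart at day 3 (2.44 ± 0.34), and at day 6 the groups overlapped at no more than 0.276 CPM. The difference of -3.21 ± 0.90 (adjusted p = 0.0261) rests on those few reads and was lost without any 1 of 4 libraries. Of genes that take up or break down these lipids, Slco2a1, the prostaglandin transporter (1.19 and -0.02, difference -1.21 ± 0.27), and Ephx2, soluble epoxide hydrolase (1.04 and 0.14, difference -0.90 ± 0.15), rose at day 3 alone, and Ptgr1, prostaglandin reductase 1, rose on both days (0.73 and 0.28, difference -0.45 ± 0.11). The EP4 receptor gene Ptger4 was not called on either day or in the difference (-0.26 ± 0.15, adjusted p = 0.267).

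Most glutathione and antioxidant genes of the NRF2 pathway rose at day 3, and fewer were called as rises at day 6. NRF2 is a transcription factor released by oxidants and electrophiles, lipid peroxidation products among them. Of 23 tested genes of the list, 13 had a lower difference (56.5%, beside 7% of all genes) and 10 were not called (median -0.48). At day 3, 19 rose (median 0.44), and at day 6, 10 rose and 1 fell (median 0.04). Rises made up 17.2% and 15.5% of all genes on these days. Gsta1, a glutathione transferase that conjugates lipid aldehydes, measured 50.1, 51.4 and 58.5 CPM with vehicle and 116, 118 and 129 CPM with AA at day 3. At day 6 it measured 148, 142, 151 and 159 CPM with vehicle and 152, 129, 146 and 144 CPM with AA. The groups were apart at day 3 and overlapped at day 6, and the difference was -1.25 ± 0.10 (adjusted p = 2.98e-07). Gsta4, specialised for hydroxynonenal, was alike (1.16 and -0.08, difference -1.24 ± 0.10, adjusted p = 2.98e-07). Nqo1, a quinone reductase (1.12 and 0.21, difference -0.91 ± 0.10), and Akr1b8, an aldehyde reductase (1.95 and 1.19, difference -0.76 ± 0.09), rose on both days and less at day 6. Gsta1 has close paralogs to which its reads could be assigned.

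Promoter sequence was read for this list because its members moved together and NRF2 binds a known element, TGACNNNGC. RefSeq windows of GRCm38.p6, from 250 bases before to 50 bases after each gene's start, were searched on both strands, and 20 of the 24 list members had a window. A match was present for 6 of the 20 members (30.0%), beside 3781 (14%) of all 27025 genes with a window, and for 2 of the 10 members with a window and a lower difference. These 2 were Srxn1, sulfiredoxin, which repairs oxidised peroxiredoxins, and G6pdx, glucose-6-phosphate dehydrogenase, a source of NADPH, chosen for the match after their values were seen. Their windows, at chr2:152105274-152105573 on the plus strand and chrX:74428831-74429130 on the minus strand, are printed 5′ to 3′ with the match in capitals. In each the match is on the strand opposite to the gene, so it is printed as its reverse complement.
Srxn1: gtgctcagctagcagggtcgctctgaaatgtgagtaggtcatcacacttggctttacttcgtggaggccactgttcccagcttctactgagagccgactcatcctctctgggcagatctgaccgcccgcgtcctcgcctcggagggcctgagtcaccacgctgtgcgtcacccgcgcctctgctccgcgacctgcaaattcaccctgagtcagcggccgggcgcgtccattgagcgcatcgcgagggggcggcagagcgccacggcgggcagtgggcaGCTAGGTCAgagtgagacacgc
G6pdx: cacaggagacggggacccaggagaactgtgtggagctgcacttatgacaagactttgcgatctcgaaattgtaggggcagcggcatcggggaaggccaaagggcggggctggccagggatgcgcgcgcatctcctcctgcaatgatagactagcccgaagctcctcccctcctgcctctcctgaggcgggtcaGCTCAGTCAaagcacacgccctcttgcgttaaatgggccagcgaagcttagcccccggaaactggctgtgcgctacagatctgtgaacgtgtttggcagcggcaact
Srxn1 measured 51.1, 48.7 and 54.4 CPM with vehicle and 94.0, 100.5 and 103 CPM with AA at day 3, and 55.0, 50.4, 59.0 and 55.4 CPM and 70.7, 61.5, 67.4 and 65.2 CPM at day 6. AA libraries were above vehicle on both days, by a smaller ratio at day 6 (difference -0.68 ± 0.10, adjusted p = 0.00013). G6pdx measured 163, 143 and 164 CPM with vehicle and 202, 202 and 219 CPM with AA at day 3, and 156, 151, 161 and 177 CPM and 152, 167, 151 and 175 CPM at day 6, where the groups overlapped. Its difference of -0.40 ± 0.10 (adjusted p = 0.0147) was not called without vehicle replicate 2 (adjusted p = 0.0646) or AA replicate 3 (adjusted p = 0.0599) of day 3. A match is a description of the sequence only.

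Cyp1a1 and Cyp2c29, both cytochrome P450 genes, fell at day 6. Cyp1a1, the cytochrome P450 induced through the aryl hydrocarbon receptor, measured 10.8, 9.20 and 8.84 CPM with vehicle and 13.0, 9.46 and 9.14 CPM with AA at day 3. Its day 6 levels were 10.1, 10.3, 7.79 and 10.8 CPM with vehicle and 2.22, 1.91, 2.35 and 1.62 CPM with AA. The groups overlapped at day 3 and every AA library was below every vehicle library at day 6, a 4.80-fold fall (difference -2.40 ± 0.23, adjusted p = 2.12e-06). Cyp2c29, of a P450 family that can oxidise AA, rose at day 3 and fell at day 6 (0.64 and -0.65, difference -1.29 ± 0.14, adjusted p = 5.79e-06).

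Id1 and Id3, inhibitors of basic helix-loop-helix factors that respond to BMP signals, were among the 12 largest lower differences at a mean log2 CPM of 2 or more. Id3 measured 9.03, 7.41 and 6.18 CPM with vehicle and 26.4, 26.7 and 27.2 CPM with AA at day 3. With vehicle at day 6 it measured 20.4, 17.2, 21.3 and 22.1 CPM, and with AA 16.5, 12.4, 16.5 and 15.5 CPM. The groups did not overlap on either day and their order reversed, with responses of 1.81 ± 0.14 and -0.41 ± 0.10 (difference -2.22 ± 0.17, adjusted p = 2.78e-07). Id1 rose at day 3 and was not called at day 6 (1.81 and -0.14, difference -1.95 ± 0.16, adjusted p = 2.98e-07). In the immediate early and cAMP list 5 of 24 genes were called, 4 lower and 1 higher. The shares were 16.7% and 4.17%, beside 7% and 4.64% of all genes. Without vehicle replicate 1, vehicle replicate 2 or AA replicate 3 of day 3, 2 were called. Klf4, a differentiation factor, rose on both days and less at day 6 (0.74 and 0.22, difference -0.52 ± 0.13), and the phosphatase Dusp4 rose at day 6 alone (0.01 and 0.51, difference 0.50 ± 0.11).

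Inducible defence genes split, with 3 of 16 higher and 3 lower (18.8% each, beside 4.64% and 7% of all genes). Nos2, inducible nitric oxide synthase, measured 13.0, 13.3 and 16.5 CPM with vehicle and 16.2, 17.8 and 16.4 CPM with AA at day 3. The day 6 libraries measured 2.94, 2.70, 2.32 and 2.81 CPM with vehicle and 16.0, 12.3, 18.6 and 20.3 CPM with AA. The groups overlapped at day 3 and were far apart at day 6, where Nos2 rose 6.22-fold (difference 2.40 ± 0.22, adjusted p = 1.24e-06). The antibody transporter Pigr fell at day 3 alone (-0.52 and -0.01, difference 0.51 ± 0.10). Of 18 tested antigen presentation genes, 3 rose and 1 fell at day 3 (median 0.05), and 1 rose and 10 fell at day 6 (median -0.40). Their difference was lower for 5 (27.8%, beside 7% of all genes) and not called for 13 (median -0.47). Without vehicle replicate 1, AA replicate 2 or AA replicate 3 of day 3, 3 were called. The peptide transporter Tap1 (0.11 and -0.57, difference -0.68 ± 0.15) and the immunoproteasome subunit Psmb10 (-0.00 and -0.49, difference -0.49 ± 0.11) fell at day 6 alone. The class I genes H2-Q2 (0.91 and 0.22, difference -0.69 ± 0.16) and H2-D1 (0.51 and 0.09, difference -0.42 ± 0.12) instead rose at day 3 and were not called at day 6, and as members of a family of close copies their counts are uncertain. The call of H2-D1 was lost without any 1 of 5 libraries, with adjusted p up to 0.105.

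Glycolysis and hypoxia-responsive genes, like the fetal-like list, rose on both days. Of 25 gene records tested 17 rose at day 3 and 22 at day 6 (medians 0.50 and 0.44). A higher difference was called for 2 (8%, beside 4.64% of all genes). These were Pfkfb3, a regulator of glycolytic flux (-0.03 and 0.57, difference 0.61 ± 0.14), and the collagen hydroxylase P4ha1 (difference 0.56 ± 0.17), which lost its call without any 1 of 10 of the 14 libraries. Plod2, a collagen lysyl hydroxylase outside the list, measured 12.5, 10.5 and 10.4 CPM with vehicle and 9.18, 10.3 and 10.3 CPM with AA at day 3, and 1.39, 1.07, 1.49 and 1.15 CPM and 5.59, 2.53, 4.70 and 5.23 CPM at day 6. The AA libraries were slightly below vehicle at day 3, without a call, and Plod2 rose 3.52-fold at day 6 (difference 2.00 ± 0.29, adjusted p = 0.000153). Stratified epithelium genes were largely day 3 rises, 12 of 15, beside 5 at day 6 (median difference -0.76). The difference was lower for 3 (20%, beside 7% of all genes). At day 6 the list summed to only 11.4 to 12.2 CPM with vehicle and 17.0 to 19.8 CPM with AA. Among the 3 lower were the desmoglein Dsg3 (2.86 and 0.74, difference -2.11 ± 0.41) and Ecm1 (1.33 and -0.05, difference -1.38 ± 0.22). Dsg3 averaged 0.336 CPM with vehicle and 0.562 CPM with AA at day 6, a response that was not called (adjusted p = 0.0927). The lowest AA library (0.4477 CPM) was barely above the highest vehicle library (0.4469 CPM) there. Of 8 gastric genes 6 rose and 1 fell at day 3 (median 1.53), and 2 rose at day 6 (median 0.76). The difference was called for 1 of them (12.5%, beside 11.6% of all genes), Gkn3, a gastrokine. Unlike most of the list, Gkn3 fell at day 3, and it was not called at day 6 (-2.35 and 0.35, difference 2.70 ± 0.39). Of 26 chromatin and DNA methylation enzymes 1 (3.85%) was called, the histone methyltransferase Kmt2a, as higher, and the list's median difference was 0.13. Of 25 genes of the unfolded protein response, ATF4 and serine synthesis 2 (8%) were called, both lower, with a median of -0.01.

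Genes called in opposite directions on the 2 days numbered 90, of which 42 fell at day 3 and rose at day 6 and 48 did the reverse, and all 90 were called in the difference. Besides Lgr5, Fcgbp and Acss2, the first set held Klhl24, a ubiquitin ligase adaptor (-0.81 and 0.42, difference 1.23 ± 0.14), Slc17a4, an intestinal organic anion transporter (-0.45 and 0.55, difference 1.00 ± 0.13), and Slc12a8 (-0.51 and 0.47, difference 0.97 ± 0.10). The second held Tinagl1, a matricellular protein. It measured 17.1, 15.5 and 14.6 CPM with vehicle and 33.8, 35.8 and 42.9 CPM with AA at day 3, and 11.7, 12.4, 10.7 and 16.0 CPM and 7.95, 8.82, 8.28 and 9.31 CPM at day 6. The groups did not overlap on either day and their order reversed (difference -1.80 ± 0.17, adjusted p = 2.12e-06).

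Further genes with large differences belonged to no list. Thbs1, thrombospondin 1 (-1.49 and 0.28, difference 1.77 ± 0.21), and Tent5c, a poly(A) polymerase (-1.51 and 0.20, difference 1.71 ± 0.17), fell at day 3 alone. Ano3, of the anoctamin family, rose at day 6 alone (-0.00 and 1.77, difference 1.78 ± 0.23). Its day 6 levels were low, with means of 0.753 CPM with vehicle and 2.58 CPM with AA. Both day 3 groups averaged 13.75 CPM. Ethe1, a mitochondrial sulfur dioxygenase (1.89 and 0.29, difference -1.60 ± 0.16), and Myl7, a myosin light chain (3.05 and 1.36, difference -1.69 ± 0.30), rose on both days and less at day 6. Esr1, the oestrogen receptor, Tgm1, a transglutaminase, and Col18a1, a collagen, were also among the 12 largest lower differences at a mean log2 CPM of 2 or more. Levels were low for Esr1 at day 3, with means of 0.302 CPM with vehicle and 0.892 CPM with AA (difference -1.77 ± 0.51, adjusted p = 0.0292). At day 6 the vehicle and AA means were 0.826 and 0.770 CPM for Tgm1 and 0.474 and 0.702 CPM for Col18a1.

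**Figure D4:**
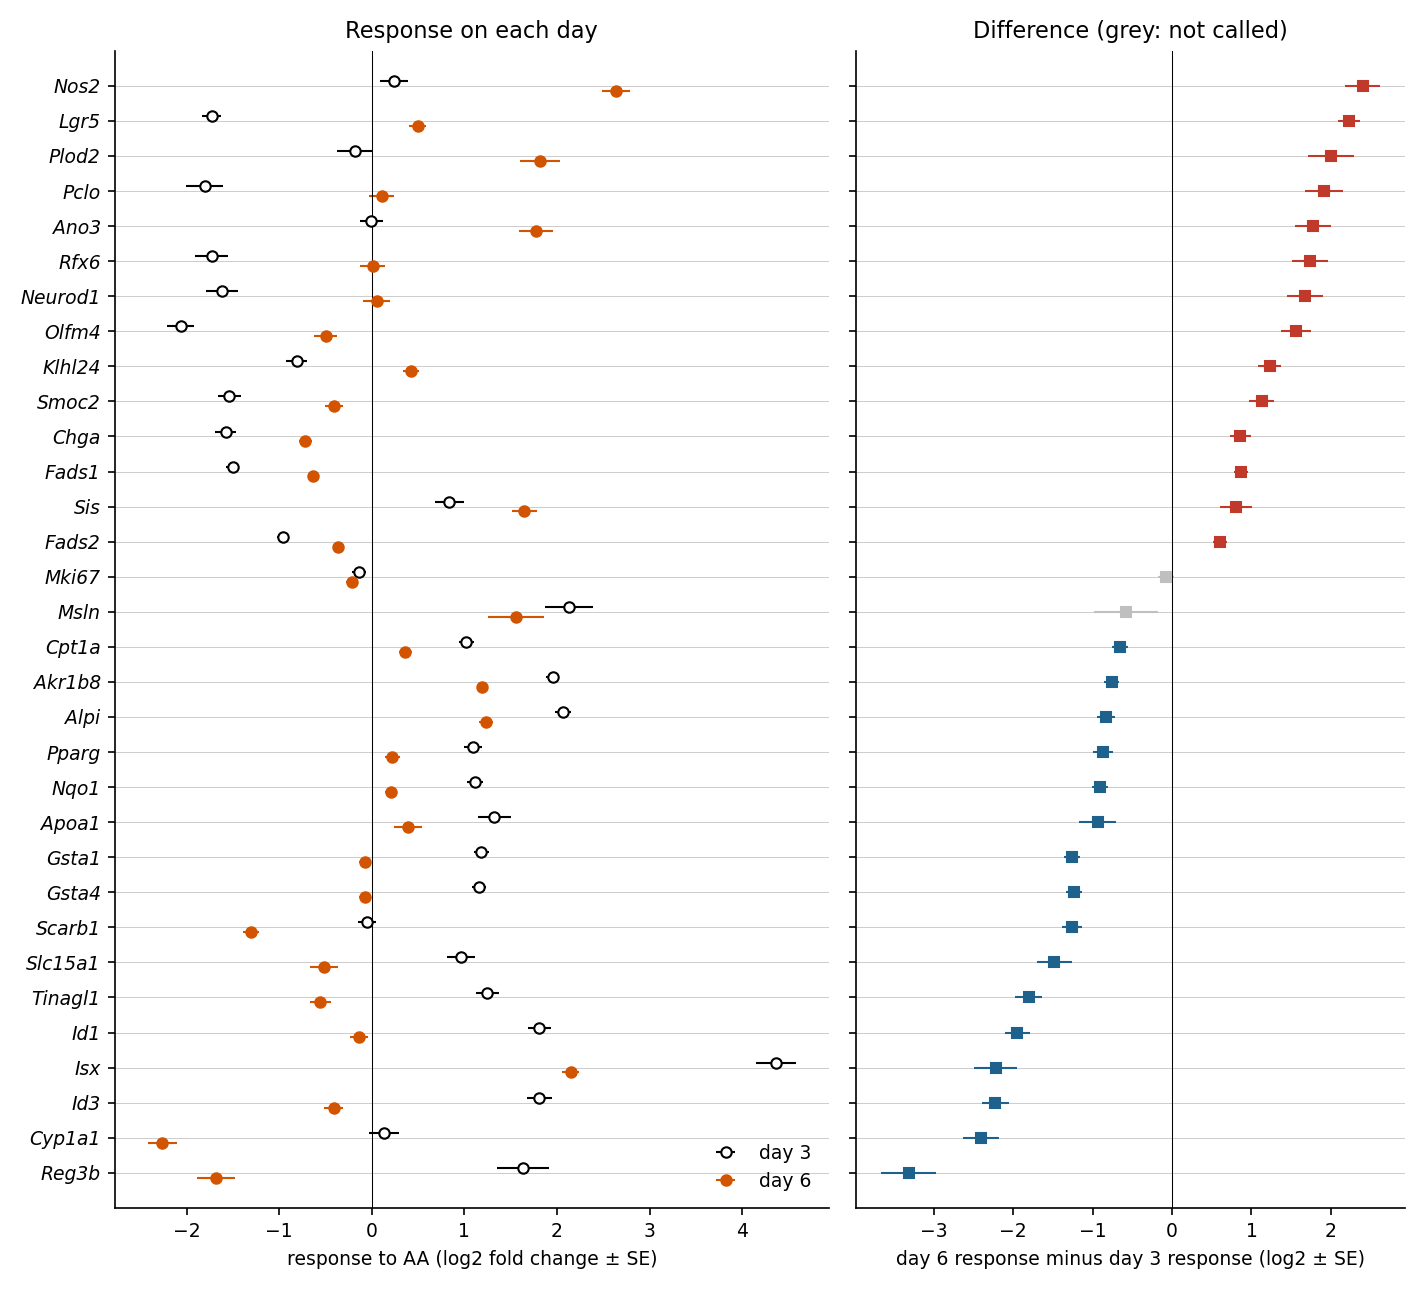
Left, the response to AA of 32 genes at day 3 (open circles) and day 6 (filled circles) as a log2 fold change with its SE. Right, the day 6 response minus the day 3 response with its SE, in red where called higher, blue where called lower and grey where not called, from 2.40 for Nos2 to -3.31 for Reg3b (14 libraries in 1 fit).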

How the data were processed

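The authors deposited raw counts per gene, whole numbers, in 2 tables, 1 covering days 1 and 3 and the other day 6. RNA was extracted with Trizol and made into libraries with a directional kit (NEBNext Ultra II), as the labels' protocols state. The submitters' processing notes name cutadapt, STAR, DESeq2 and limma 3.46, with no roles, and a human build, GRCh38.p6. The identifiers are mouse Ensembl genes, so no gene positions are printed apart from RefSeq promoter windows. The counting program and strand setting are not given in the sources used. A gene name was found for 55144 of the 55385 identifiers, and the other 241 held 0.00263% of counts.

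The tables were joined by identifier and the 14 libraries fitted together in edgeR 4.0.16 (R 4.3.3), with filterByExpr by group, TMM factors, 1 mean per group and a robust quasi-likelihood fit with 10 residual degrees of freedom. The difference of responses and each day's response were contrasts of that fit. P-values were adjusted by Benjamini-Hochberg over 15568 genes, with a threshold of 0.05, and the SE is the log2 value over the square root of F. CPM values are TMM-scaled with no prior count, and precision is limited by 3 or 4 libraries per group. The scripts were tested on simulated data. No 2 libraries of a group agreed within sampling noise. Vehicle replicate 4 of day 6 stood furthest from its group. Its counts gave a chi-square per degree of freedom of 20.15 to 22.7 against the other libraries, which gave 5.42 to 12.4 among themselves. It also had the lowest quality weight in the limma fit, 0.234. Without it 1822 genes were called, 1603 of them among the 1812.

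The comparison, its members and the 36 gene lists were chosen with earlier results of these data known, and lists are described by counts and medians. Genes were named by a rule: up to 12 in each direction with the largest called differences at a mean log2 CPM of 2 or more, up to 6 in each direction called oppositely on the 2 days, up to 4 of lowest p in every list holding 3 or more called members, and 37 further genes of interest. The genes outside it, Ptges, Nts, Ascl2, Msi1, Tnfrsf19, Avil, Clca1, Gkn3, Slc5a1, Krt18, Pfkfb3, P4ha1, Srxn1, G6pdx, Tm7sf2 and Kmt2a, were chosen after their values were seen. A few genes that the rule names are not reported here. Alternatives were DESeq2 1.42.0, limma 3.58.1 with voom weights, other scaling and filters, all 26 libraries, each day alone, a replicate block and leaving out each library.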

Additional observations from a re-analysis of the deposited data

Results flagged for a closer look

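The difference between the days is the comparison described above, and it was called for 1812 genes by the test of the difference itself. Among genes named here that were called in opposite directions on the 2 days, the log2 difference was 2.23 for Lgr5, 1.23 for Klhl24, 1.00 for Slc17a4, 0.97 for Slc12a8, 0.96 for Fcgbp and 0.63 for Acss2. It was -3.31 for Reg3b, -2.22 for Id3, -1.80 for Tinagl1, -1.63 for Reg3g, -1.48 for Slc15a1 and -1.29 for Cyp2c29.

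Single libraries stood apart from the other 3 of their day 6 group in 10 of 230 groups examined by Dixon's ratio, whose 95% limit chance passes in about 1 of 20 groups. With vehicle these were Rfx6 at 4.20 CPM in replicate 3, Tff3 at 439 CPM in replicate 4, Tnfrsf19 at 3.06 CPM in replicate 2, P4ha1 at 40.8 CPM in replicate 3 and the mitochondrial ribosomal RNA share of 0.266% in replicate 1. With AA they were Rfx6 at 5.23 CPM in replicate 4, Tff3 at 341 CPM in replicate 3, Agpat2 at 43.4 CPM in replicate 1, Il33 at 0.504 CPM in replicate 3 and the small noncoding RNA share of 1.19% in replicate 3.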

How the results depend on the processing

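Over 24 alternatives, none of the 1812 called differences was called in the opposite direction. The number called was 2969 with all 26 libraries and 1124 to 2058 when 1 library was left out. With 1 library left out, 58.1% to 94.0% of the 1812 kept their call, the fewest (1052) without AA replicate 3 of day 3. Higher differences numbered 1362 with all 26 libraries, 1103 with each day fitted alone and 471 to 809 with 1 library left out, and lower ones 636 with library totals in place of TMM and 581 to 1263 with 1 library left out. DESeq2 called 1902. Same-numbered libraries did not deviate together (r from -0.141 to 0.321), so the numbers were not used as pairs, and a replicate block called 1943 genes, of which 1667 were among the 1812. Of 96 called genes followed, 84 kept their call throughout and 12 lost it in at least 1 alternative, among them Apoa1 (adjusted p = 0.0561) and Clca1 (0.0744) with the replicate block. Many of these 96 were named for large differences or low p, so their share does not stand for all 1812. Of the 13 followed genes that were not called, Scd1, Plin2, Krt18 and Il33 were called in some. The log2 difference of Mki67 was 0.011 with library totals and -0.163 to 0.017 with 1 library left out. The causes were not tested. Depth limits genes under about 1 CPM most, such as Ptges and Ptgs2 at day 6.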
